A study of Homo sapiens with 15 samples.

Results

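The genes described here are 10 cytokines of the senescence-associated secretory phenotype, namely the interleukins IL1A and IL1B, the interleukin-6 family cytokines IL6, LIF and IL11, and the chemokines CXCL8, CXCL1, CXCL2, CXCL3 and CCL2. They were taken by name from the deposited table of raw gene counts, after its Ensembl identifiers had been matched to symbols in GENCODE 44. All 10 were found among the 57272 genes of the table, and all 10 were among the 15799 genes that passed the filter on low counts. A gene can pass that filter through the condition in which it is highest.

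RNA was sequenced from MRC-5 cells, a long-established human fetal lung fibroblast line, cultured at 5% oxygen. The 15 libraries form 5 conditions with 3 replicates each. The young cells were at population doubling 30 and carried either the empty lentiviral vector pWPIR-GFP with a control siRNA, the vector pWPIR-GFP-TRF2 with the control siRNA, or the empty vector with an siRNA against LMNB1, the gene of lamin B1 (siLMNB1). The senescent cells, which had reached the plateau of growth, carried the empty vector or the TRF2 vector, both with the control siRNA. By the study's account, the TRF2 cells passed through more doublings before they senesced than the empty-vector cells, so that vector and number of doublings cannot be told apart between the 2 senescent conditions. TRF2 is a protein of the shelterin complex, which covers telomeres, and its gene is TERF2. Every condition therefore holds a transduced vector and an siRNA, the vector stayed far longer in the senescent cells than in the young ones, and all of them come from 1 cell line. The labels call the 6 senescent libraries a reanalysis of data deposited before, so in any comparison of senescent with young cells the deposit and the state cannot be told apart.

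Cells that stop dividing for good can secrete a mixture of inflammatory cytokines, chemokines, growth factors and proteases. IL-1 alpha and IL-1 beta act early in this network through the IL-1 receptor, which activates the transcription factor NF-kB, and NF-kB together with C/EBP factors drives IL6, CXCL8 and other targets. IL-6, LIF and IL-11 each use their own receptor chain and share the signalling chain gp130, which activates STAT3. CXCL8 and CXCL1 to CXCL3 attract neutrophils through the receptors CXCR1 and CXCR2, while CCL2 attracts monocytes through CCR2.

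The members lie on 6 chromosomes (GRCh38, GENCODE 44). The 4 CXC chemokine genes share a cluster on chromosome 4, with CXCL8 at chr4:73740519-73743716 and CXCL1 at chr4:73869393-73871308 on the plus strand, and CXCL3 at chr4:74036589-74038807 and CXCL2 at chr4:74097040-74099196 on the minus strand. The 2 interleukin-1 genes are neighbours on the minus strand of chromosome 2, IL1A at chr2:112773925-112784493 and IL1B at chr2:112829751-112836816. The others stand alone, with IL6 at chr7:22725884-22732002 (plus), LIF at chr22:30240453-30246759 (minus), IL11 at chr19:55364382-55370463 (minus) and CCL2 at chr17:34255274-34257208 (plus). CXCL1, CXCL2 and CXCL3 are close copies of each other, but no stretch of 100 bases of their longest transcripts occurs in another member, whereas at 35 bases the shared part was 11.9% of CXCL1, 18.7% of CXCL2 and 5.29% of CXCL3. Exons of other genes on either strand cover 9.91% of the exonic bases of IL6 and 4.37% of those of LIF, and none of those of the other members.

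The promoters of the 4 CXC chemokines and of IL6 are shown because they are the ones in which the letters of a kB motif were found, and NF-kB is well known for driving these genes. Sequences were matched in RefSeq (GRCh38.p14) for 8 of the 10 members, all but LIF and CCL2, and the RefSeq start sites of IL6, CXCL8, CXCL2, CXCL3 and IL1B lie inside the GENCODE genes. The 150 bases before the start site are printed 5′ to 3′ on the strand of the gene, at chr4:73869243-73869392 (plus) for CXCL1, chr4:74099196-74099345 (minus) for CXCL2, chr4:74038690-74038839 (minus) for CXCL3, chr4:73740419-73740568 (plus) for CXCL8 and chr7:22727050-22727199 (plus) for IL6. Capitals mark the letters GGNNTTTCC of a kB motif, the kind of sequence that NF-kB binds.
CXCL1: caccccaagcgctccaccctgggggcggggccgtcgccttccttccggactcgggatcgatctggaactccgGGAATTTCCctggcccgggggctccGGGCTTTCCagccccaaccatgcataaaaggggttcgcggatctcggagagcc
CXCL2: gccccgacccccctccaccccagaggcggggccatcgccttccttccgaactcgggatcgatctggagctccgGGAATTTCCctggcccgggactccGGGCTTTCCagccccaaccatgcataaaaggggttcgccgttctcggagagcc
CXCL3: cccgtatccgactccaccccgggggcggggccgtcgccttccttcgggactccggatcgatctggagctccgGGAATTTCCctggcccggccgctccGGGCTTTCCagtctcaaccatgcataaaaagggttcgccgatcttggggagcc
CXCL8: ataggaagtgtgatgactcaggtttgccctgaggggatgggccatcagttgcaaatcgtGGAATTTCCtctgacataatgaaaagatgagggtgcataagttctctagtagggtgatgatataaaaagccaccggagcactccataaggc
IL6: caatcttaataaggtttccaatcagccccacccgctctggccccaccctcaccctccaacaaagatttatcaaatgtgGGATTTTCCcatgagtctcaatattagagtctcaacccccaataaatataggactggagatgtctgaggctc

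CXCL1, CXCL2 and CXCL3 carry 2 matches each, and the pair has the same letters in all 3 genes. With the first transcribed base at 0, the matches begin at -78 and -53 in CXCL1 and CXCL3 and at -77 and -53 in CXCL2. At equal distance from the start site, 86% of the 150 bases were identical between CXCL1 and CXCL3 and 29.3% between CXCL1 and CXCL8. CXCL8 and IL6 carry 1 match each, beginning at -91 and -72.

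Over the full promoter windows of 300 bases (250 before the start site and 50 from it on), searched on both strands, 5 of the 8 member promoters held the kB letters, against 6.26% of all 35116 promoters of the table. The AP-1 letters TGANTCA were found in 3 of the 8 (IL1A, IL11 and CXCL8) and in 7.71% of all promoters. The C/EBP letters TTGCNNAA were found in 3 (IL1B, IL6 and CXCL2) and in 10.5% of all. The TATA letters TATAAA were found in 2 (IL1A and CXCL8) and in 11.5% of all. No match of one motif overlapped a match of another, and a match of letters describes the sequence only.

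**Figure D1:**
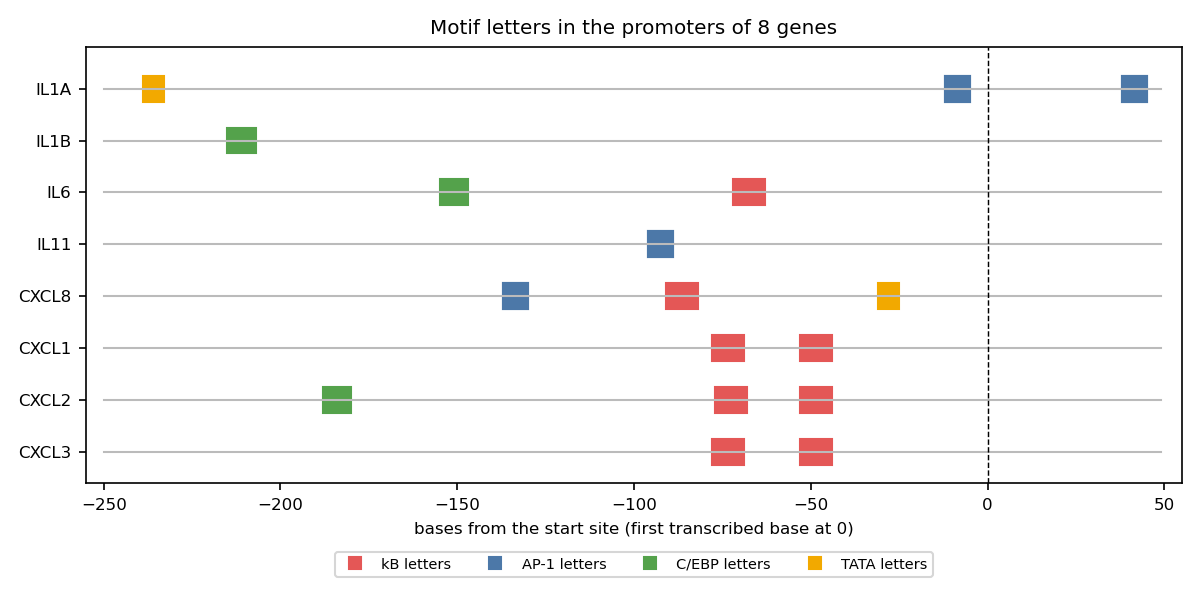
Positions of the kB, AP-1, C/EBP and TATA letters (coloured boxes) in the promoter windows of 8 genes; the x axis gives bases from the start site, with the first transcribed base at 0. CXCL1, CXCL2 and CXCL3 share a pair of kB matches between -78 and -45, CXCL8 and IL6 have 1 each, and IL1A, IL1B and IL11 have none.

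The libraries held between 26725885 and 43116046 counts. The siRNA and the vector acted on their targets: LMNB1 fell by 4.48 on the log2 scale with siLMNB1, and TERF2 rose by 3.03 in young and 3.23 in senescent cells with the TRF2 vector. In senescence with the empty vector, LMNB1 fell by 3.54, the proliferation gene MKI67 fell by 3.27, and the cell cycle inhibitor gene CDKN2A rose by 1.20. All 8 fibroblast markers were counted in every library, and their summed level, in TMM-scaled CPM (counts scaled to a common library total), was 20033 to 33387. Of the myeloid markers, PTPRC, LYZ, TYROBP, AIF1, ITGAM and SPI1 stayed at or below 0.0879 CPM, and the summed level of all 9 was 0.475 to 1.74 CPM in young and 2.59 to 3.79 CPM in senescent libraries, mostly CD14 and CSF1R. Lymphocyte markers (6 genes) summed to at most 0.541 CPM and endothelial markers (5 genes) to at most 4.31 CPM. Epithelial markers (6 genes) summed to at most 0.928 CPM except in young empty-vector replicate 1, where 209 counts of KRT5 and 111 of KRT14 brought the sum to 11.7 CPM. In bulk RNA, fewer cells with a transcript and less of it per cell cannot be told apart.

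In young cells with the empty vector the members spanned a wide range of levels. Per kilobase of exon, LIF was highest with 14.01 ± 0.670 CPM (SD, n = 3), which lay above 81.7% of the genes kept. CCL2 followed with 10.5 ± 0.798 and IL11 with 10.4 ± 1.21, which do not differ beyond their spread, and CXCL8 came next with 6.12 ± 1.54. The other 6 lay between 0.218 ± 0.227 (CXCL3) and 0.770 ± 0.304 CPM per kilobase (CXCL1), so that LIF stood 26.3-fold above IL6 and CXCL8 7.95-fold above CXCL1 per length. The order changed in senescence: IL11 was first at 18.2 ± 4.76 and LIF second at 16.4 ± 3.76 CPM per kilobase with the empty vector, within the spread of each other, while IL1A came last at 0.0513 ± 0.0311.

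**Figure D2:**
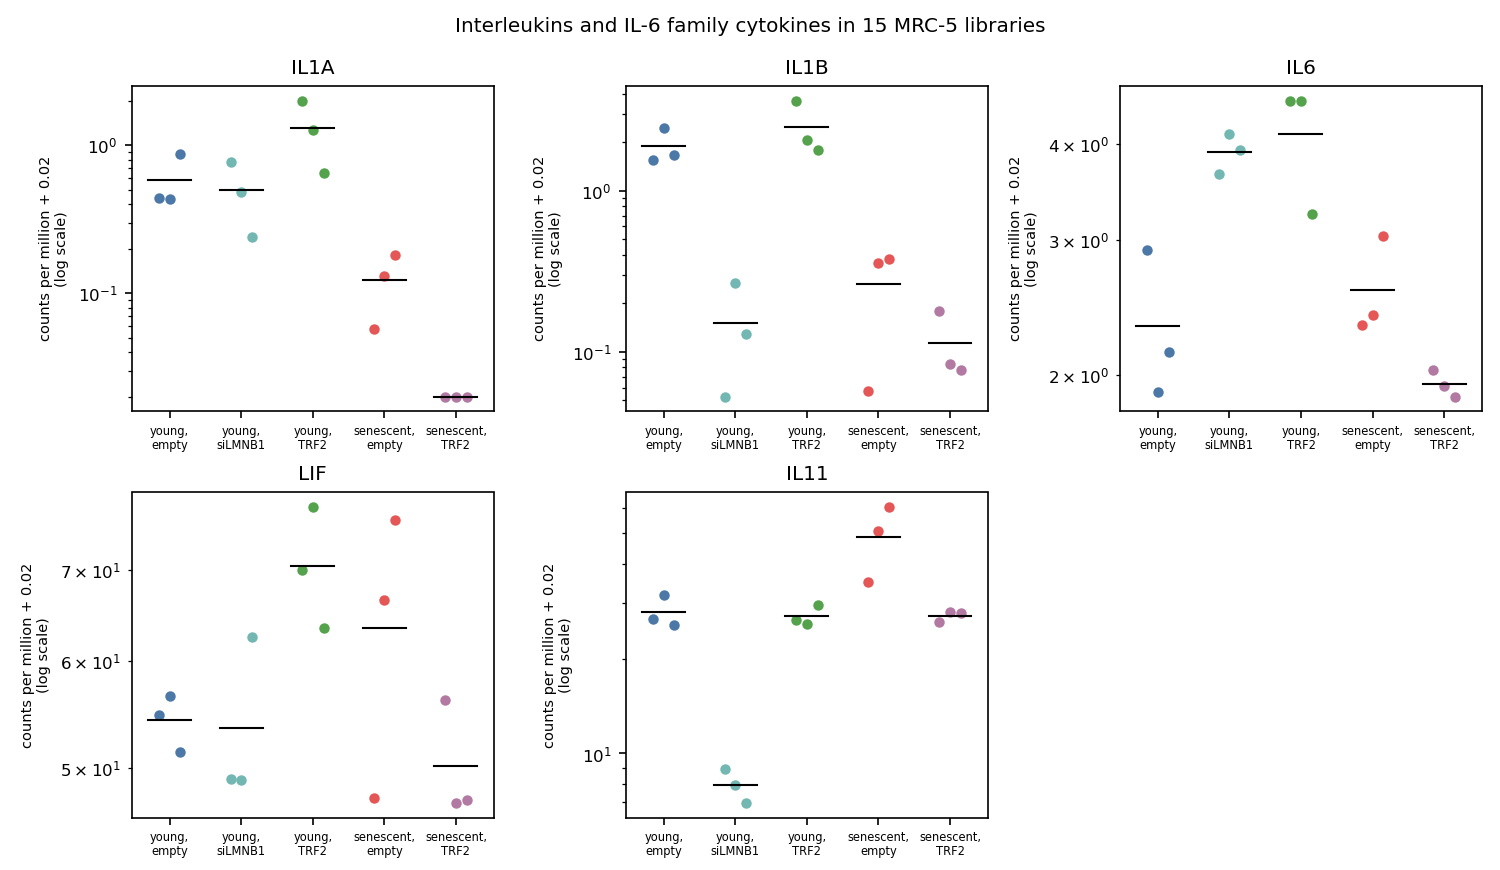
Levels of IL1A, IL1B, IL6, LIF and IL11 in each of the 15 libraries, as CPM plus 0.02 on a log scale; points are libraries, in the order of replicates 1 to 3, and black lines are means of 3. IL1A was lowest in the 2 senescent conditions, at 0 counts in all TRF2 libraries, IL1B was low there and with siLMNB1, and LIF stayed between 47.1 and 77.8 CPM throughout.

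**Figure D3:**
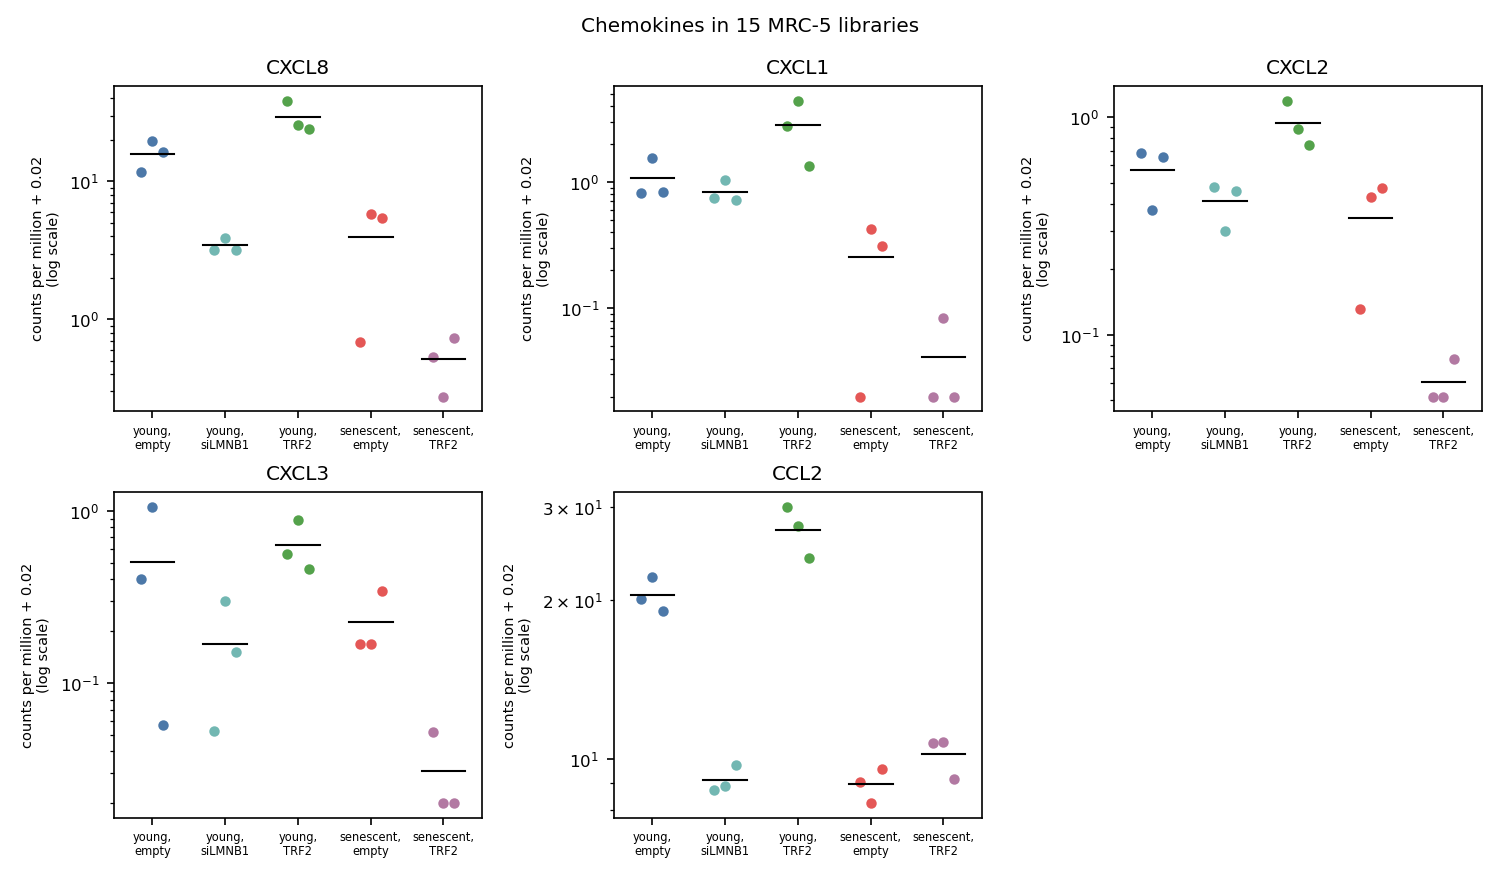
Levels of CXCL8, CXCL1, CXCL2, CXCL3 and CCL2 in each of the 15 libraries, as CPM plus 0.02 on a log scale; points are libraries, in the order of replicates 1 to 3, and black lines are means of 3. CXCL8 ran from 0.255 CPM in a senescent TRF2 library to 38.4 CPM in a young TRF2 library, and CCL2 was near 10 CPM in both senescent conditions and with siLMNB1.

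Senescence with the empty vector lowered 5 of the 10 genes and raised none past the thresholds (adjusted p under 0.05 in edgeR's quasi-likelihood test, log2 fold change of at least 1). The 5 were IL1A, IL1B, CXCL8, CXCL1 and CCL2. Over all 15799 genes tested, 11.8% were lower and 16.7% higher by the same thresholds, 28.5% in all. Without overlap between the groups, 5 members were lower and 1 was higher, against 32.8% and 31.9% of all genes. The median log2 fold change of the 10 members was -1.21 and that of all genes 0.02.

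IL1B had 1.53, 2.44 and 1.64 CPM in the young libraries and 0.0372, 0.333 and 0.356 CPM in the senescent ones. The groups did not overlap, and the log2 fold change was -2.91 ± 0.52 (SE), with an adjusted p of 0.00014. IL1A, the other ligand of the IL-1 receptor, rested on 12, 14 and 23 counts in young and 1, 3 and 5 in senescent libraries, so that each senescent library lay below each young one. Its log2 fold change was -2.35 ± 0.71 (adjusted p = 0.0093).

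CXCL8, the main neutrophil chemokine of the set, gave 11.7, 19.6 and 16.2 CPM in young and 0.669, 5.78 and 5.44 CPM in senescent cells. Every senescent library lay below every young one, but senescent replicate 1 stood far below its 2 partners. The log2 fold change was -1.99 ± 0.42 (adjusted p = 0.00062), and between -2.35 and -1.51 with each library left out in turn. CXCL1 fell by 2.16 ± 0.65 on the log2 scale (adjusted p = 0.0085), from 23, 52 and 22 counts to 0, 11 and 9. CCL2, the monocyte chemokine, went from 20.05, 22.1 and 19.02 CPM to 9.04, 8.22 and 9.56 CPM. Its replicates were the tightest among the chemokines, and it fell by 1.19 ± 0.11 (adjusted p = 1.6e-07).

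None of the 3 interleukin-6 family cytokines was called. IL11 had 26.7, 31.7 and 25.6 CPM in young and 34.99, 50.6 and 60.3 CPM in senescent cells. Its groups did not overlap and its log2 fold change was 0.80 ± 0.15 (adjusted p = 0.00029), short of the threshold of 1. An adjusted p under 0.05 alone was reached by 6 members and by 64.7% of all genes. IL6 was at 2.89, 1.88 and 2.12 CPM against 2.31, 2.37 and 3.01 CPM, and LIF at 54.7, 56.6 and 51.4 CPM against 47.5, 66.6 and 76.1 CPM. Both overlapped between the groups, with log2 fold changes of 0.17 ± 0.20 (adjusted p = 0.48) and 0.23 ± 0.15 (adjusted p = 0.19). The 2 other CXC chemokines had values of -0.72 ± 0.45 (CXCL2) and -1.23 ± 0.77 (CXCL3) and overlapped too. Of CXCL3, young replicate 3 held 1 count and replicate 2 held 35. Without replicate 3 CXCL3 also passed, and without replicate 2 its value was -0.03 (adjusted p = 0.98).

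Counts rose with the GC content of genes by 0.444 to 0.785 (log2 per 10 points of GC) in senescent libraries and by -0.006 to 0.128 in the young ones, relative to the young empty-vector mean. CXCL8 and IL1A are the 2 members poorest in GC, with 32.5% and 38.7% in the longest transcript. When offsets corrected for GC content and length, 2 calls were left, IL1B at -2.66 and CXCL1 at -1.84, while IL1A (-1.65, adjusted p = 0.058), CXCL8 (-0.96, adjusted p = 0.048) and CCL2 (-0.82, adjusted p = 3.6e-06) no longer passed both thresholds. Their direction stayed.

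**Figure D4:**
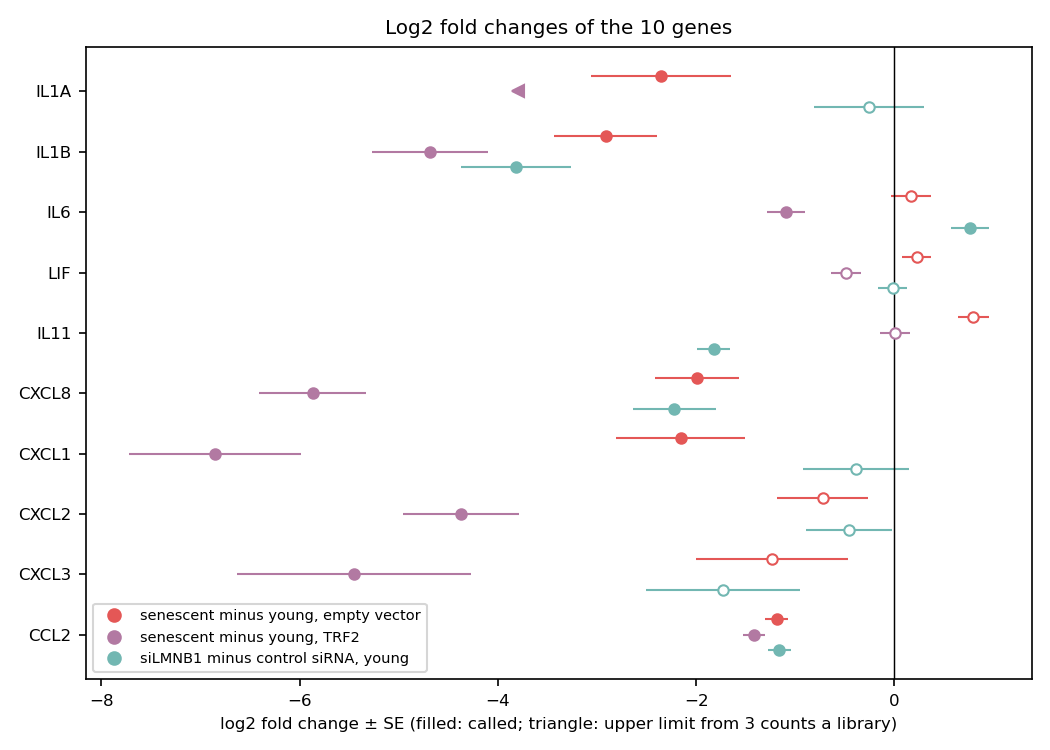
Log2 fold changes (x axis) with standard errors of the 10 genes for senescent minus young cells with the empty vector (red), the same with TRF2 (purple), and siLMNB1 minus control siRNA in young cells (turquoise); filled points passed both thresholds. The triangle is the upper limit for IL1A, -3.80, from 3 counts a library, and the TRF2 values of CXCL1 and CXCL3 rest on 2 counts and 1 count in senescent cells.

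With TRF2 in both states, senescent cells were lower than young cells in 8 of the 10 genes, and higher in none. Among all genes, 12.1% were lower and 24% were called in either direction. Without overlap, 9 members were lower, against 36.6% of all genes. All members but LIF and IL11 were called, and the median log2 fold change was -4.53, or -4.09 with IL1A at its bound, against -0.02 over all genes. This comparison and that with the empty vector share no library.

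IL1A had 73, 42 and 20 counts in young TRF2 cells and 0 counts in each of the 3 senescent TRF2 libraries, where 3 counts would be 0.0855 to 0.0956 CPM. It was at least 13.9-fold lower, taking 3 counts per library as the floor (adjusted p = 1.4e-05). IL1B went from 3.59, 2.05 and 1.75 CPM to 0.159, 0.0637 and 0.0570 CPM, a log2 fold change of -4.69 ± 0.58 (adjusted p = 3.8e-06). Both interleukin-1 genes thus showed no overlap between young and senescent libraries with either vector.

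CXCL8 went from 38.4, 25.6 and 24.05 CPM to 0.510, 0.255 and 0.712 CPM. The highest senescent library was far below the lowest young one, and the fitted level was 58.5-fold lower (log2 fold change -5.87 ± 0.54, adjusted p = 1.2e-07). CXCL1 had 101, 147 and 42 counts in young and 0, 2 and 0 in senescent libraries. The ratio of summed scaled counts was 139, with an exact 95% counting interval of 38.0 to 1150 that covers counting error only, and the adjusted p was 4.5e-06. CXCL3 had 20, 29 and 14 counts against 1, 0 and 0, a ratio of 60.2 with an interval of 10.4 to 2415 (adjusted p = 0.00084). CXCL2, with 43, 29 and 23 counts against 1, 1 and 2, fell by 4.37 ± 0.58 on the log2 scale (adjusted p = 8.2e-06).

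Smaller falls were seen for CCL2 and IL6. CCL2 went from 29.9, 27.6 and 23.96 CPM to 10.7, 10.7 and 9.12 CPM (-1.42 ± 0.11, adjusted p = 1.8e-08), and IL6 from 4.54, 4.54 and 3.23 CPM to 2.01, 1.91 and 1.85 CPM (-1.09 ± 0.19, adjusted p = 0.00014). Neither gene overlapped between the states. LIF was at 70.0, 77.8 and 63.4 CPM against 56.1, 47.1 and 47.4 CPM, a log2 fold change of -0.49 ± 0.15 (adjusted p = 0.0092) that missed the fold threshold. The p alone was passed by 9 members and by 58.3% of all genes. IL11 hardly moved, from 26.4, 25.8 and 29.5 CPM to 26.03, 28.1 and 27.9 CPM (0.01 ± 0.15, adjusted p = 0.97). Under the GC and length offsets, CCL2 (-0.999, adjusted p = 2.5e-07) and IL6 (-0.89, adjusted p = 0.00079) fell short of the fold threshold alone, and the other 6 still passed.

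Knock-down of LMNB1 in young cells changed 5 of the 10 genes, 1 upward and 4 downward. By the thresholds set for it (adjusted p under 0.05, log2 fold change 0.58 or more), 18.3% of all genes were called, 10.3% higher and 8.06% lower. The gene that rose was IL6, from 2.89, 1.88 and 2.12 CPM to 3.64, 4.11 and 3.91 CPM. The groups did not overlap, and the log2 fold change was 0.76 ± 0.19 (adjusted p = 0.0062).

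IL11 fell from 26.7, 31.7 and 25.6 CPM to 8.91, 7.95 and 6.94 CPM, by 1.82 ± 0.16 on the log2 scale (adjusted p = 6.8e-07). No siLMNB1 library came near a control one. IL1B fell from 44, 83 and 44 counts to 1, 8 and 5 (-3.82 ± 0.55, adjusted p = 7.5e-05), CXCL8 from 335, 668 and 436 counts to 97, 125 and 145 (-2.22 ± 0.42, adjusted p = 0.00077), and CCL2 from 575, 751 and 511 counts to 266, 287 and 443 (-1.16 ± 0.11, adjusted p = 1.4e-06). None of the 3 overlapped between the groups in CPM. In all 4 members were lower and 1 was higher without overlap, against 27.9% and 29.5% of all genes.

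The other 5 members were not called. LIF was at 49.06, 49.05 and 62.5 CPM with siLMNB1 (-0.02 ± 0.15, adjusted p = 0.94). IL1A (-0.26 ± 0.55), CXCL1 (-0.39 ± 0.53) and CXCL2 (-0.46 ± 0.43) overlapped with their controls, with standard errors as large as the values or nearly so. CXCL3 had -1.73 ± 0.78 (adjusted p = 0.10), and it passed without young empty-vector replicate 3. With each library left out in turn, its value ran from -2.42 to -0.52 and its adjusted p from 0.022 to 0.71. The senescent and the siLMNB1 comparison use the same 3 control libraries. Set side by side, the values were -2.91 and -3.82 for IL1B, -1.99 and -2.22 for CXCL8, -1.19 and -1.16 for CCL2, 0.80 and -1.82 for IL11, and -2.35 and -0.26 for IL1A, senescence first.

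TRF2 in young cells moved none of the 10 members past the thresholds in edgeR's quasi-likelihood test, in which 0.165% of all genes were called, 0.152% higher and 0.0127% lower. At an unadjusted p under 0.05, 6 members (IL1A, IL6, LIF, CXCL8, CXCL1 and CCL2) passed, against 9.66% of all genes, and DESeq2 called 1, IL6. Of the 10 log2 fold changes 9 were positive, and IL6, LIF, CXCL8, CXCL2 and CCL2 had every TRF2 library above every empty-vector library, as had 11.7% of all genes. IL6 was at 4.54, 4.54 and 3.23 CPM with TRF2 against 2.89, 1.88 and 2.12 CPM (0.84 ± 0.19, adjusted p = 0.11). CXCL8, at 38.4, 25.6 and 24.05 CPM against 11.7, 19.6 and 16.2 CPM, had 0.89 ± 0.38 (adjusted p = 0.45). The largest estimate was that of CXCL1, 1.40 ± 0.50 (adjusted p = 0.34).

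In senescent cells TRF2 went with lower levels of 3 members, IL11, CXCL8 and CXCL2, and none was higher. Of all genes 6.91% were called, 4.3% lower and 2.61% higher. IL1A, IL6, IL11, CXCL2 and CXCL3 had every TRF2 library below every empty-vector one, as had 13.9% of all genes. For IL1A this rests on 1, 3 and 5 counts with the empty vector against 0 in each TRF2 library. For CXCL3 it rests on 4, 4 and 10 counts against 1, 0 and 0. IL11 was at 34.99, 50.6 and 60.3 CPM with the empty vector and 26.03, 28.1 and 27.9 CPM with TRF2 (-0.83 ± 0.15, adjusted p = 0.0032), with no overlap. CXCL8 was at 0.669, 5.78 and 5.44 CPM and 0.510, 0.255 and 0.712 CPM (-2.99 ± 0.59, adjusted p = 0.0047). Here the groups overlapped, because empty-vector replicate 1 was as low as the TRF2 libraries. CXCL2 had 3, 11 and 14 counts against 1, 1 and 2 (-2.89 ± 0.66, adjusted p = 0.012), and lost its call without TRF2 replicate 1 or 2. Without empty-vector replicate 1, 6 members were called, in a fit where 2318 of all genes were called in place of 1092. In a fit of the 6 senescent libraries alone none of the 5 members left by its filter was called, as against 2 of all genes. CCL2 differed little, with 0.18 ± 0.11 (adjusted p = 0.30).

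**Figure D5:**
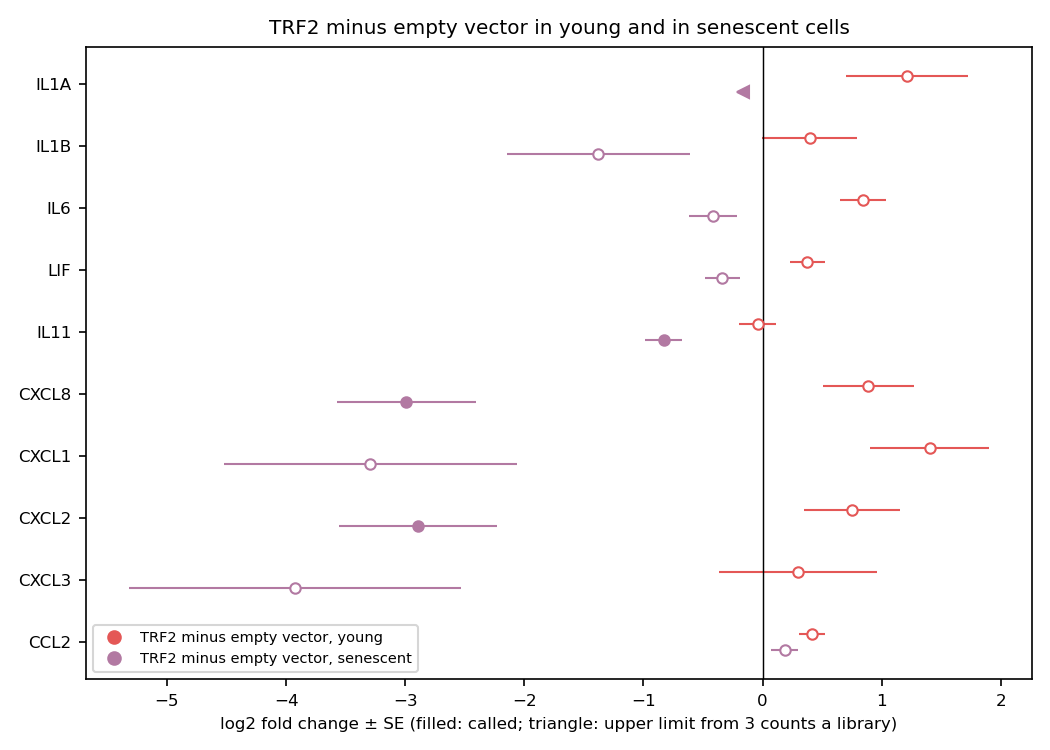
Log2 fold changes (x axis) with standard errors of TRF2 minus empty vector for the 10 genes in young cells (red) and senescent cells (purple); filled points passed both thresholds, and the triangle is the upper limit for IL1A, -0.17, from 3 counts a library. In young cells 9 of 10 values are above 0 and none is filled, whereas in senescent cells only CCL2 is above 0 and IL11, CXCL8 and CXCL2 are filled.

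The difference between the TRF2 effects in senescent and in young cells was tested as an interaction. It was below 0 in all 10 members and passed at an adjusted p under 0.05 in 3, against 1.13% of all genes in either direction and 0.956% in this one. They were CXCL8 (-3.88 ± 0.70, adjusted p = 0.022), CXCL2 (-3.64 ± 0.78, adjusted p = 0.036) and IL6 (-1.26 ± 0.28, adjusted p = 0.039). With each of the 12 libraries of the 4 conditions left out in turn, between 0 and 7 members were called, while the log2 values lay between -4.36 and -3.52 for CXCL8, -4.03 and -3.30 for CXCL2, and -1.46 and -1.10 for IL6. None was called without senescent TRF2 replicate 1 or 2, senescent empty-vector replicate 2, young TRF2 replicate 1, or young empty-vector replicate 1 or 2, fits in which 6 to 69 of all genes were called in place of 179. There were 7 without senescent empty-vector replicate 1, a fit in which 2089 of all genes were called. Some genes of the lists described below were also called by the interaction, below 0 or above it.

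The values of the listed genes, here and in the next paragraphs, are from the fit without the GC and length offsets. Of 13 listed receptor, antagonist and decoy genes 7 passed the filter, whereas CXCR1, CXCR2, CCR2, ACKR1, IL1R2 and IL1RN did not. In senescent cells with the empty vector 1 of the 7 rose and 2 fell, where 16.7% of all genes were higher and 11.8% lower. ACKR3, an atypical receptor that takes up CXCL12, rose from 0.130 to 3.18 CPM (4.53 ± 0.53, adjusted p = 1.6e-06), IL1RAP, the accessory chain of the IL-1 receptor, fell by 1.22 ± 0.17 and LIFR, the LIF receptor chain, by 1.08 ± 0.28. With TRF2, ACKR3 rose by 4.48 and IL1RAP fell by 1.10. With siLMNB1 IL6R rose by 0.86 ± 0.11, and LIFR (-1.50), IL1R1 (-1.42) and IL11RA (-0.64) fell. No receptor was called for TRF2 in young cells, and ACKR3 alone in senescent cells, where it was 1.37 higher on the log2 scale.

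Of 12 regulators, among them the NF-kB subunits, C/EBP factors and kinases, all were kept. In senescence 1 was called with the empty vector and 1 with TRF2, against 28.5% and 24% of all genes, and 4 were called with siLMNB1, against 18.3%. CEBPB, a C/EBP factor, rose by 1.01 ± 0.13 in senescent cells with the empty vector (adjusted p = 3.3e-06), from 79.2 to 159 CPM, and had 0.16 ± 0.12 (adjusted p = 0.28) with TRF2. The interaction of CEBPB was -0.85 ± 0.18 (adjusted p = 0.033). Its rise with the empty vector was just over the threshold of 1, and the number of interaction calls varied with the library left out, as given above. None of NFKB1, NFKB2, REL, RELA and RELB was called in any of the comparisons. Some reached an adjusted p under 0.05 alone. In senescence with the empty vector and with TRF2, NFKB1 had -0.71 and -0.64, REL -0.78 and -0.85, and RELA 0.50 and 0.56. RELB had -0.81 in senescence with TRF2, and NFKB1 had 0.41 with siLMNB1. That p was reached by 64.7% of all genes in senescence with the empty vector, 58.3% with TRF2 and 32.5% with siLMNB1. MAP3K8, a kinase upstream of NF-kB and ERK, fell by 1.90 ± 0.31 in senescent cells with TRF2 and rose by 1.01 ± 0.29 with siLMNB1. With siLMNB1, CEBPD rose by 1.12 ± 0.25, and FOSL1, an AP-1 subunit, and HIF1A fell by 0.93 ± 0.10 and 0.70 ± 0.12. For TRF2 in senescent cells 1 of the 12 was called, FOSL1 (-0.61 ± 0.10), where 4.3% of all genes were lower.

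NF-kB also induces its own inhibitors and other well-known targets. Of 11 listed feedback genes of NF-kB and of STAT3, SOCS3 among them, 10 were in the table and kept. In senescent cells with the empty vector 3 of the 10 fell and none rose, against 11.8% and 16.7% of all genes. They were BIRC3 (-2.19 ± 0.16), TNFAIP3 (-1.53 ± 0.18) and ICAM1 (-1.46 ± 0.12), the first an inhibitor of apoptosis, the second a brake on NF-kB and the third an adhesion molecule. With TRF2 the same comparison gave 4 that fell, BIRC3 (-2.50), TNFAIP3 (-2.39), ICAM1 (-2.10) and NFKBIZ (-1.26), against 12.1% of all genes lower. In young cells 3 of the 10 were called higher with TRF2, of 26 genes called in all. They were NFKBIZ by 1.08 ± 0.17, ICAM1 by 0.79 ± 0.11 and TNFAIP2 by 0.64 ± 0.09 (adjusted p = 0.011 each). With single libraries of the compared conditions left out, 1 to 18 of all genes were called, so these calls do not hold in every such fit. With siLMNB1 ZC3H12A, a nuclease that degrades cytokine transcripts, rose by 0.68 and BIRC3 fell by 0.94. By the interaction 2 of the 10 were called, both below 0, against 0.956% of all genes in that direction. They were NFKBIZ (-1.19 ± 0.24) and TNFAIP2 (-0.63 ± 0.12). The medians of the 10 genes were -0.05 for senescence with the empty vector, -0.40 with TRF2 and 0.52 for TRF2 in young cells.

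Of 33 other secreted cytokines listed, 18 passed the filter. In senescence 6 of the 18 were called with the empty vector and 8 with TRF2, against 28.5% and 24% of all genes, and 7 with siLMNB1, against 18.3%. With the empty vector 3 rose in senescence, CXCL14 (4.60), CTF1 (1.62), an interleukin-6 family cytokine, and CCL26 (1.35), and 3 fell, CXCL5 (-3.05), CXCL12 (-2.41) and IL34 (-1.83). With TRF2, CXCL14 and CTF1 rose and 6 fell, led by CXCL5 (-7.10 ± 0.78) and IL24 (-5.43 ± 0.79). CXCL5 and IL24 were at 0.0095 and 0.059 CPM in senescent TRF2 cells, and CXCL14 was at 0.024 CPM in young empty-vector cells. These means lie below 3 counts a library, so the sizes of these changes are poorly bounded. siLMNB1 raised TNFSF15 (1.75), CTF1 (1.26) and IL32 (0.87) and lowered CXCL5 (-3.27), IL12A (-1.05), CXCL10 (-1.04) and CXCL12 (-0.83). With TRF2 in senescent cells 3 of the 18 were lower, against 4.3% of all genes. They were IL24 (-4.35), CXCL5 (-3.77) and GDF15 (-1.02), the first and second again at few counts. CXCL12 was higher (0.80), where 2.61% of all genes were. By the interaction 2 of the 18 were called below 0, IL24 (-4.47 ± 1.02) and GDF15 (-1.41 ± 0.25), against 0.956% of all genes. CXCL12 was called above 0 (1.08 ± 0.25), where 0.177% of all genes were. CXCL5 is a further ligand of CXCR2 and had 1.58 CPM in young and 0.188 CPM in senescent cells with the empty vector.

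Likeness of pattern was measured as the root mean square distance between the centred log2 levels of 2 genes over the 5 condition means, among the genes kept. Of all genes, IL1A was nearest to CXCL1 and CXCL1 to IL1A, at 0.25. The gene nearest to CXCL8 was CXCL5 at 0.27, and that nearest to IL1B was LMNB1 at 0.24. CXCL3 was nearest to HMGA2-AS1 at 0.33 and next to CXCL2 at 0.35. For LIF, IL6, IL11 and CCL2, at least 1501 genes lay nearer to each than the closest member. Their nearest genes were PKP3 (0.05), EEF1A1P19 (0.06), FOXD1 (0.09) and SNHG16 (0.08). IL6 and LIF themselves were 0.35 apart, as CXCL2 and CXCL3 were. The distances are descriptions over 5 points, and those of IL1A, CXCL1, CXCL2 and CXCL3 rest on few counts. IL1B too had only 14 counts in all with siLMNB1 and 9 in senescent TRF2 cells. CXCL5, the gene nearest to CXCL8, was at 0.0095 CPM in senescent TRF2 cells.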

How the data were processed

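RNA-seq of 15 MRC-5 libraries gave the values used. Per the labels and the paper's methods, paired reads were trimmed (Trimmomatic) and aligned to GRCh38 by STAR, whose raw counts per gene the authors deposited unnormalized. The annotation release and the strand setting of the counting are not given in the sources used here. Without strand, reads of antisense genes cannot be told apart. Groups came from the labels. The paper calls the replicates biological, and the labels name no separate cultures.

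Genes were named with GENCODE 44, which lacks 324 of the 57272 genes (0.0563% of counts). Counts were fitted with edgeR 4.0.16 (R 4.3.3, limma 3.58.1): TMM scaling, filterByExpr, 1 model of all libraries with a mean per condition, and quasi-likelihood tests, adjusted over 15799 genes by Benjamini-Hochberg. Calls needed an adjusted p under 0.05 and a log2 fold change of 1 (senescent against young) or 0.58 (siLMNB1, TRF2) or more in size, and the interaction the p alone. CPM are TMM-scaled. Total counts per library were 26725885 to 43116046. Intervals (95%, exact) and floors (3 counts per library) cover counting error only. The 9 kinds of alternative included DESeq2 1.42.0, no filter, a replicate block, loess offsets for GC content and length (span 0.3) and each library left out. On simulated counts for senescent against young cells the test was checked before use. Python 3.11.15 with pandas 2.3.3 and scipy 1.17.1 made the summaries. The members, the gene lists and the genes named (all members, and called genes of the lists) were chosen with earlier results of these data known. Promoters came from RefSeq and were searched for fixed letters. Protein sequences were not used here.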

Additional observations from a re-analysis of the deposited data

Results flagged for a closer look

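The effect of TRF2 differed between senescent and young cells by the interaction test in 3 of the 10 members, which marks them for a closer look. CXCL8 had -3.88 ± 0.70 on the log2 scale (adjusted p = 0.022 in edgeR's quasi-likelihood test), with 38.4, 25.6 and 24.05 CPM in young TRF2 and 0.510, 0.255 and 0.712 CPM in senescent TRF2 libraries. Its adjusted p lay between 5.6e-06 and 0.072 with single libraries left out. CXCL2 had -3.64 ± 0.78 (adjusted p = 0.036) and a range of 0.0017 to 0.12, and it rests on 4 counts in all senescent TRF2 libraries. IL6 had -1.26 ± 0.28 (adjusted p = 0.039) and a range of 0.0076 to 0.11. Its TRF2 libraries lay above the empty-vector libraries in young cells and below the empty-vector libraries in senescent cells. Among the other listed genes CEBPB, NFKBIZ, TNFAIP2, IL24 and GDF15 were also called below 0, and CXCL12 above 0. What sets these differences was not tested.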

How the results depend on the processing

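Of 833 member values under the alternatives, 738 kept their direction and their side of the threshold, 45 lost a call, 33 gained one and 17 changed sign. For senescence with the empty vector, the offsets for GC content and length left 2 of the 5 calls, with and without the replicate block, and leaving out a library gave 5 to 6. With TRF2 the count was 6 with the offsets, 9 with no fold threshold, and 8 with any library left out. For siLMNB1 it was 5 to 6 throughout. For TRF2 in young cells the count of 0 became 1 with DESeq2, 3 without the filter and 2 with the libraries compared alone. For TRF2 in senescent cells the 3 calls became 5 with DESeq2, 6 without the filter and 0 with the libraries compared alone, and 2 to 6 with a library left out. For the interaction the 3 became 7, 8 and 0 in the same order, and 0 to 7 with a library left out. Among all genes, 28 of 179 interaction calls were upward. The cause of these moves was not tested.

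Same-numbered libraries of different conditions deviated from their condition means with correlations from -0.09 to 0.20, over 0.1 in 2 of 30 pairs. Libraries with different numbers had correlations from -0.13 to 0.08. Whether same-numbered libraries share a culture or a batch cannot be told from these values. With the replicate block the counts in the 6 comparisons were 5, 8, 5, 0, 3 and 2, the last without IL6. The block with the offsets gave 5 for TRF2 in senescent cells.

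The signs that turned all belong to values that were not called. With the offsets, LIF in senescence with the empty vector became -0.15 (-0.15 with the replicate block) and IL11 with TRF2 -0.043 (-0.044 with the block). With a library left out the ranges were -0.037 to 0.065 for IL11 in senescence with TRF2, -0.73 to 0.17 for IL1A, -0.14 to 0.046 for LIF and -0.57 to 0.0053 for CXCL1 with siLMNB1, and -0.10 to 0.058 for IL11 and -0.22 to 1.51 for CXCL3 with TRF2 in young cells. Depth limits IL1A, CXCL1, CXCL2 and CXCL3 most, with 0 to 4 counts in all in the senescent TRF2 cells.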
